A study of Mus musculus with 12 samples.

Results

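The effect of SMA genotype that brain and spinal cord of the mouse embryo have in common was estimated from the 6 SMA libraries against the 6 control libraries of the series. All 12 libraries of the series and all 10481 genes of its count table entered 1 additive model, with the tissue of each library as a covariate and no interaction. In this model a gene has 1 log2 fold change, SMA over control, that both tissues contribute to.

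In ribosome profiling, pieces of mRNA that lie inside a ribosome are spared by nuclease and sequenced. A footprint count therefore depends both on how much mRNA a gene has and on how many ribosomes each mRNA carries, and since no mRNA abundance entered the work here the 2 are not separated. SMA is caused by too little SMN, a protein that acts in the assembly of the small nuclear ribonucleoproteins of the spliceosome and is also found on ribosomes. At midgestation, brain and spinal cord hold dividing progenitors, which line the ventricles and the central canal, and the neurons they give rise to. The primary cilium of these cells carries the signal of Hedgehog, which sets the identity and the division of progenitors.

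The SMA embryos were Smn-/-; SMN2tg/0 and the controls were Smn+/-; SMN2tg/0, both of the Taiwanese model. Control embryos therefore lacked 1 mouse Smn allele, and both genotypes had the human SMN2 transgene. Every library came from embryonic day 14.5, and there were 3 libraries each of control brain, SMA brain, control spinal cord and SMA spinal cord. There were 3 embryos of each genotype, but the sources used here do not say which brain and spinal cord libraries came from the same embryo. The additive model takes the 12 libraries as independent. With genotype and replicate number taken as an embryo, as a random block in limma voom, 1172 genes had an unadjusted p below 0.05. Limma voom without the block gave 1302 and the edgeR fit below 1265, and 0 genes passed adjustment in each.

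Totals lay between 3683842 and 12793955 footprints per library, and each SMA spinal cord library (5162190 to 8027322) was shallower than each control spinal cord library (10315064 to 12793955). The 8 Hox genes with a name, markers of the trunk, summed to between 389 and 688 CPM (counts scaled to library size with TMM factors) in spinal cord and to between 2.19 and 5.58 CPM in brain. The 5 named forebrain genes summed to between 604 and 731 CPM in brain and to between 14.95 and 62.43 CPM in 5 of the 6 spinal cord libraries. Control spinal cord library 1 stood apart with 184.5 CPM of forebrain genes, and it also had the highest sums of DNA replication genes (827 CPM, against 377 to 472 in the other spinal cord libraries) and of mitosis genes (1079 CPM, against 665 to 733). SMA spinal cord library 1 stood apart in the 13 genes of liver and yolk sac, with 1582 CPM against 171 to 655 in the other spinal cord libraries. Results that rest on a library of this kind are given with and without it. Names were at hand for 1999 of the 10481 genes, 1979 of them among the 1999 lowest Ensembl identifiers. Smn1, the targeted gene, has no name at hand and was not analysed here, and genotypes are those of the labels.

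Pooling both tissues gave many genes with a small shift and none past a correction for 10481 tests. By edgeR's quasi-likelihood test with Benjamini-Hochberg adjustment, 0 genes (0%) had an adjusted p below 0.05, and the smallest adjusted p was 0.276. At an unadjusted p below 0.05, 610 genes were lower in SMA (5.82% of all) and 655 were higher (6.25%), 1265 in all, where 524 of 10481 tests would fall below 0.05 if no gene had changed. Brain alone gave 529 such genes and spinal cord alone gave 733. DESeq2, with the same additive design, gave 53 genes at an adjusted p below 0.05, 18 lower and 35 higher, and assigned no adjusted p to 6109 genes. Of these 53, 9 have a name here: Nes, Fnbp4 and Tiam1 were lower, and Rps15a, Nsg2, Rtn1, Mdh2, Rab5c and Pgrmc1 were higher. Of these 9, Mdh2 did not pass in edgeR with the trend on footprints per base removed (below). In what follows a gene is said to have risen or fallen, or to have passed, when its unadjusted p in the additive fit was below 0.05, which no gene kept after adjustment in edgeR. A change is on the log2 scale, and the value after ± is its SE.

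With the thresholds of the study (mean CPM of at least 0.05, log2 fold change of at least 0.5 in either direction, unadjusted p below 0.05), 63 genes were lower (0.601%) and 26 were higher (0.248%). Single libraries moved these counts: the lower genes were 28 without control spinal cord library 1, 41 without SMA spinal cord library 2, 116 and 113 without control spinal cord libraries 2 and 3, and 151 without SMA spinal cord library 1, and the higher genes were 104 without control spinal cord library 3, 68 without SMA spinal cord library 2 and 55 without SMA spinal cord library 3. With the smaller fold change of 0.3 that the study used for pathways, 209 were lower (1.99%) and 170 were higher (1.62%), so that 55.1% were lower. This share was 68.3% with scaling to library size alone, 47.7% with upper-quartile factors and 39.7% with the trend on footprints per base (below) removed, so it turned with the processing. Of these, 63 lower genes (30.1%) and 49 higher genes (28.8%) passed the same thresholds in neither tissue alone. The 3 SMA libraries lay entirely below the 3 control libraries in both tissues for 85 of the 9781 genes that averaged 20 counts or more (0.869%), and entirely above them for 101 (1.03%). In 23 further genes the libraries separated in both tissues but in opposite directions.

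The SMA effects of the tissues, which share no library but may share embryos, ran in the same direction for 6330 of those 9781 genes (64.7%). The Spearman correlation was 0.384 across genes, which are not independent of each other. The share was 62.2% and the correlation 0.302 with the trend on footprints per base (described below) removed. Of the 9781 genes, 258 passed the pathway thresholds as lower in brain. They had a median of -0.43 there and of -0.19 in spinal cord, and 204 of them (79.1%) were also below 0 in spinal cord. The 121 that passed as higher in brain had a median of 0.47 there and of 0.16 in spinal cord, with 90 of them (74.4%) above 0 in spinal cord. With the trend described below removed, the spinal cord medians of genes chosen in this way were -0.11 (69% below 0) and 0.11 (73.1% above 0). In the other direction, the 218 genes lower in spinal cord had a median of -0.098 in brain (70.2% below 0), and the 207 higher ones a median of 0.19 (95.7% above 0). Few genes passed in both tissues separately: 18 lower genes, which are 6.69% of the lower genes of brain and 8.04% of those of spinal cord, and 12 higher genes, 9.6% and 5.58%. The named ones were Fnbp4, Gmnn, Nes, Tiam1 and Timm44 among the lower genes and Dad1 among the higher genes.

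**Figure D1:**
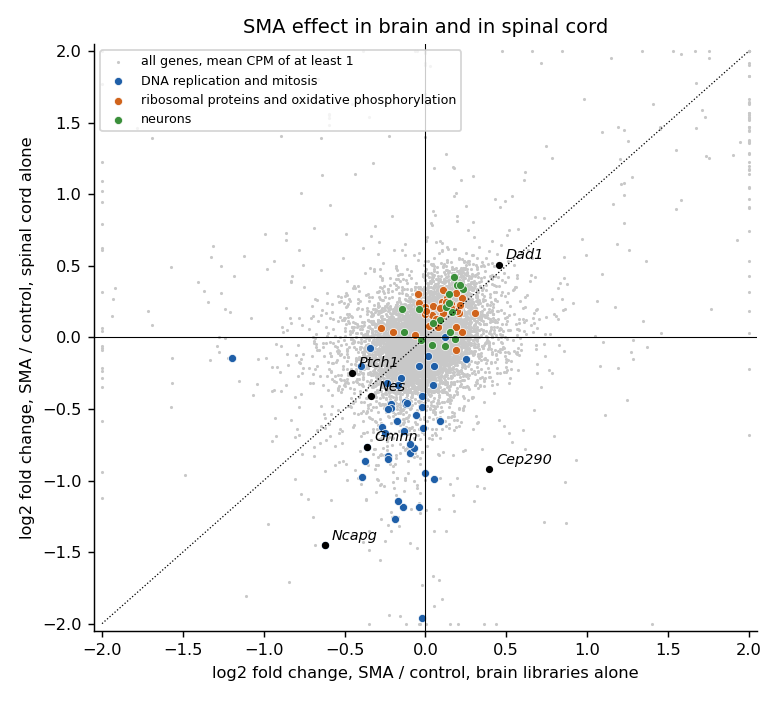
Each point is a gene with a mean of at least 1 CPM, placed by its log2 fold change, SMA over control, in brain alone (x axis) and in spinal cord alone (y axis). Points beyond 2 in either direction are drawn at the edge, and the dotted line marks equal values. Genes of DNA replication and mitosis lie mostly below 0 on both axes and further from 0 in spinal cord, ribosomal protein, oxidative phosphorylation and neuronal genes lie mostly above 0 on both, and Cep290 lies on opposite sides of 0.

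The direction of change followed how densely a gene was covered by footprints. When genes were ranked by footprints per base of gene length, the median log2 fold change was -0.086 in the lowest quintile and 0.088 in the highest (Spearman correlation 0.308 across 10481 genes). The highest quintile, above 40.8 CPM per kilobase, held 424 of the 655 genes that rose (20.2% of the quintile) and 22 of those that fell (1.05%). The lowest quintile held 147 that fell (7.01%) and 28 that rose (1.34%). The trend was present within each tissue, with a correlation of 0.222 in brain and 0.296 in spinal cord. For single libraries, the deviation from the mean of the tissue was correlated with footprints per base (Spearman). The value was -0.411 in control brain library 1 and -0.428 in control spinal cord library 1, the deepest library of each tissue. It was 0.436 in SMA spinal cord library 2 and 0.332 in library 3, the shallowest of that tissue. SMA spinal cord library 1, of a depth between these and the control libraries, had -0.214. SMA brain libraries 1 and 3, the shallowest of brain, had 0.177 and 0.162, and the remaining libraries lay between -0.056 and 0.0864. As each SMA spinal cord library was shallower than each control one, depth and genotype cannot be told apart in the trend there. Over genes, the correlation was 0.483 without SMA spinal cord library 1 and 0.207 without control spinal cord library 1. With each library's trend taken out, 32 genes were lower and 63 were higher at the thresholds of the study, so that the surplus of lower genes turned. Gene length, which enters footprints per base, was also correlated with the change (Spearman correlation -0.314). The median was 0.0855 in the shortest quintile, where 10.1% of genes rose, and -0.0684 in the longest, where 12.1% fell. With the trend removed these medians were still 0.0646 and -0.0477, so a call kept there can still go with length. The part of the trend and of gene length in the results below was not tested. The loss of a call with the trend removed is given beside the gene or list.

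**Figure D2:**
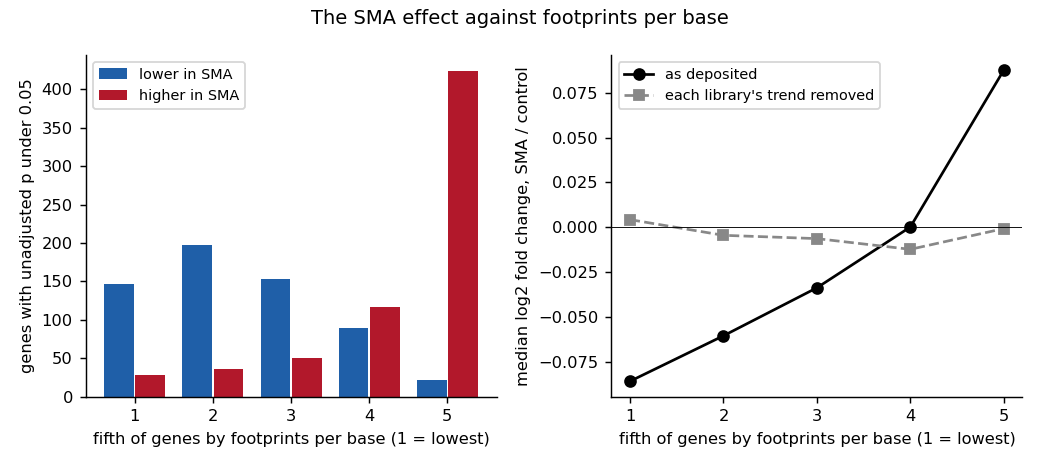
Left, bars count the genes with an unadjusted p below 0.05 that were lower (blue) or higher (red) in SMA, in quintiles of all 10481 genes by footprints per base. Right, lines give the median log2 fold change of each quintile as deposited (black) and with each library's trend removed (grey). In the highest quintile 424 genes were higher and 22 were lower, and the median went from -0.086 to 0.088 across quintiles.

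Among neural progenitor genes Nes stood out, with the smallest p of any gene in the lists used here. Nes encodes nestin, the intermediate filament protein of neural progenitors. Its footprints in control brain libraries were 348.8, 377.2 and 390.3 CPM, and in SMA brain libraries 329.7, 297.1 and 248.5 CPM. In spinal cord they were 159.5, 150.2 and 168.1 CPM in control and 111.0, 113.0 and 139.0 CPM in SMA. Every SMA library was thus below every control library of its tissue. The shared log2 fold change was -0.37 ± 0.077 (SE, adjusted p = 0.321 in edgeR), with -0.33 in brain and -0.41 in spinal cord. It was -0.39 with the trend removed, and it passed with any 1 library left out.

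Of the 13 named progenitor genes, 3 fell and 1 rose, against 5.82% and 6.25% of all genes, and the median was -0.16 against -0.0091 over all genes. Sox9, a transcription factor of progenitors and glia, fell by 0.16 without overlap of the genotypes in either tissue. Dll3, a ligand of the Notch family in newly born neurons, fell by 0.24 and was at -0.18 with the trend removed, where it did not pass. Fabp7, the fatty acid binding protein of radial glia, rose by 0.25, and with the trend removed it was at 0.077 and did not pass. Progenitor genes thus did not move as 1 group, and the median of the list was -0.0074 without control spinal cord library 1. In bulk tissue, fewer cells of a type and fewer footprints per cell cannot be told apart.

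Genes of DNA replication and of mitosis were mostly below 0. DNA replication had 19 of 20 named members below 0 and a median of -0.29, with 5 that fell and 0 that rose. Mitosis had 23 of 25 below 0 and a median of -0.37, with 2 that fell and 1 that rose. Over all genes 5483 of 10481 were below 0, 5.82% fell and 6.25% rose, and of the named genes 1157 of 1999 were below 0. The 2 lowest quintiles by footprints per base held 12 of the 20 replication genes and 15 of the 25 mitosis genes. In these quintiles 7.01% and 9.45% of all genes fell. Of the replication genes 3 passed the pathway thresholds and of the mitosis genes 1, against 1.99% of all genes. The shift was unequal between tissues, with a median of -0.12 in brain and -0.46 in spinal cord for replication, and of -0.14 and -0.59 for mitosis. Without control spinal cord library 1 the medians were -0.096 and -0.13, and with the trend also removed they were -0.080 and -0.10. Between 3 and 7 replication genes, and between 1 and 8 mitosis genes, fell when each library was left out in turn.

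Gmnn was the member that separated the genotypes in both tissues. It encodes geminin, which keeps Cdt1 from licensing replication origins again in the same cell cycle. In brain it had 41.03, 38.25 and 36.35 CPM in control and 30.07, 32.10 and 26.77 CPM in SMA. In spinal cord it had 17.61, 10.51 and 13.84 CPM in control and 6.786, 8.545 and 9.656 CPM in SMA. The log2 fold change was -0.56 ± 0.14 (SE, adjusted p = 0.321 in edgeR), and it passed with any 1 library left out. It also passed in each tissue alone, with -0.36 in brain and -0.77 in spinal cord.

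Ncapg, a subunit of the condensin complex that compacts mitotic chromosomes, showed how 1 library can weigh on a shared value. Its footprints were 53.28, 58.63 and 58.06 CPM in control brain and 31.99, 42.31 and 33.74 CPM in SMA brain. In control spinal cord they were 40.60 CPM in library 1 but 6.753 and 14.21 CPM in libraries 2 and 3, and in SMA spinal cord they were 11.10, 5.244 and 6.219 CPM. The brain libraries did not overlap, while the spinal cord libraries did. The shared log2 fold change was -0.999 ± 0.36 (SE, adjusted p = 0.331 in edgeR), with -0.62 in brain, which passed, and -1.45 in spinal cord, which did not. Without control spinal cord library 1 it was -0.57 and still passed.

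Uhrf1, which maintains DNA methylation behind the replication fork, fell by 0.52 ± 0.21. Control brain had 261.5, 302.0 and 253.7 CPM and SMA brain 234.3, 231.0 and 222.8 CPM, again without overlap. Spinal cord control libraries had 111.6, 41.93 and 55.72 CPM, the first of them more than the others together, and SMA libraries 47.01, 38.26 and 33.88 CPM. Without control spinal cord library 1 the value of Uhrf1 was -0.27, that of Mcm4 -0.22, that of Pttg1 -0.20 and that of Chaf1a -0.15, of which Chaf1a did not pass. Chaf1a did not pass with the trend removed either, at -0.16. Mcm4, of the replicative helicase, fell by 0.34 ± 0.11, Rpa1, which binds single-stranded DNA, by 0.22 ± 0.068, and Chaf1a, which places histones on new DNA, by 0.25 ± 0.11. Pttg1, the securin that holds back the separation of sister chromatids, fell by 0.29 ± 0.11. Zwint of the kinetochore rose by 0.19 ± 0.067, and with the trend removed it was at 0.094 and did not pass.

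Promoters of cell cycle genes often hold sites for E2F factors or a CHR element, by which their transcription is kept to the dividing cell. RefSeq promoters of 250 bases before the start (GRCm38.p6) were at hand for 34 of the 45 genes in the replication and mitosis lists, and none for Gmnn and Mcm4. An E2F-like word (TTTCCCGC, TTTGGCGC, TTTCGCGC or TTTGCCGC, either strand, overlaps allowed) was present in 5 of the 34 (14.7%), against 2.16% of 27025 genes with a promoter, each gene counted once if any of its windows held the word. The CHR word TTTGAA was present in 10 of the 34 (29.4%), against 18.3% of those genes. The stretches with the word in Uhrf1 (chr17:56304108-56304155, plus strand) and Ncapg (chr5:45669875-45669920, plus strand), the genes of the 2 lists with the largest fall, Gmnn apart, are shown 5′ to 3′, with the word in capitals.
Uhrf1: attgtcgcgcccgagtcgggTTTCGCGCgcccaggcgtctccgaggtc
Ncapg: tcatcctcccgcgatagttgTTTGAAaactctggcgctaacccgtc
The words begin 185 bases before the start of Uhrf1 and 30 bases before that of Ncapg. Uhrf1 has another promoter window, without the word. Rpa1, Chaf1a and Pttg1, which also fell, have neither word. Of the genes with a word, only Uhrf1 and Ncapg passed, and Cdc6, Cdk1, Mcm5, Pola1, Cdc20, Mcm2 and Top2a were among those that did not. A match of letters is not a measured site, and no binding was measured here.

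Ptch1 was the one Hedgehog gene with a name at hand, and it fell. It encodes the receptor that Hedgehog binds and is itself switched on by the pathway. Its footprints were 82.05, 57.16 and 73.19 CPM in control brain and 52.49, 44.35 and 57.73 CPM in SMA brain, with an overlap of 1 library on each side. In spinal cord they were 162.7, 144.8 and 134.4 CPM in control and 141.4, 112.3 and 121.6 CPM in SMA, again with 1 SMA library within the control range. The log2 fold change was -0.34 ± 0.11 (SE, adjusted p = 0.321 in edgeR), -0.46 in brain and -0.25 in spinal cord. It was -0.27 with the trend removed and passed there too. Rab23, a GTPase that restrains Hedgehog signalling, was not in the list and was picked after its value was seen. It fell by 0.35 ± 0.12, with -0.41 in brain and -0.29 in spinal cord.

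None of the named members of the 2 cilium lists passed in the shared fit. Names were at hand for 4 of 35 genes of the transition zone and Bardet-Biedl list and 7 of 31 of intraflagellar transport. Of Arl6, B9d1, Cep290, Ift140 and Ift25, which the study's text names, only Cep290 had a name here, and the others were not analysed. Of 4 named members of the transition zone and Bardet-Biedl list, 3 were below 0, with a median of 0.024 in brain and -0.47 in spinal cord, and of 7 intraflagellar transport genes 5 were below 0 with a median of -0.030. The median of the first list over both tissues was -0.24, and -0.049 without control spinal cord library 1. In spinal cord alone Tmem107, a membrane protein of the transition zone, was lower by its own test, with -0.67 and no overlap, and it was at 0.060 in brain. Cep290, which links microtubules to the membrane in the transition zone, had 25.49, 17.86 and 23.91 CPM in control brain and 24.61, 31.73 and 31.23 CPM in SMA brain. In spinal cord it had 43.34, 21.67 and 16.30 CPM in control and 18.51, 6.797 and 17.84 CPM in SMA. The brain value was 0.39 and passed, the spinal cord value was -0.92 and did not, and the shared log2 fold change of -0.27 ± 0.31 (SE, adjusted p = 0.728 in edgeR) lay between them. Without control spinal cord library 1 it was 0.032. The test of the difference between tissues passed unadjusted, with an adjusted p of 1 in edgeR, and 249 of all genes (2.38%) passed it unadjusted. An exact permutation of genotypes within each tissue, 400 arrangements and 2-sided, gave a difference of -0.26 in log2 CPM for Cep290 (p = 0.565, smallest possible p = 0.005).

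The machinery in which SMN works showed little movement among the members with a name. In the list of the SMN complex, Sm proteins and snRNP assembly, 1 of 5 named members fell and 0 rose, and the median was 0.016. The member was Wdr77, of the methylosome that modifies Sm proteins, at -0.19 ± 0.087, and it lost its call with 8 of the 12 libraries, left out one at a time. The Sm proteins Snrpd1, Snrpd3 and Snrpf were at 0.13, 0.084 and 0.016, none of which passed. Zcrb1, a protein of the minor spliceosome, which removes U12-type introns, fell by 0.31 ± 0.088 (SE, adjusted p = 0.321 in edgeR), with -0.31 in each tissue, and the other named member of that list did not pass. Nucleoporins had 7 of 7 named members below 0, of which Nup50 fell by 0.21 ± 0.059 and Tpr by 0.36 ± 0.16, the latter at -0.15 without control spinal cord library 1. The nucleoporin median was -0.23, and -0.12 without control spinal cord library 1. Among p53 targets Bax, which promotes apoptosis, rose by 0.18 (0.10 with the trend removed, where it did not pass) and Polk, a translesion polymerase, fell by 0.53 (-0.34 without SMA spinal cord library 2), and the other 6 named members did not pass.

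Genes for ribosomal proteins were mostly above 0, by small amounts. Of 13 named members, 12 were above 0 and 8 rose with 0 that fell, against 6.25% of all genes that rose, and the median was 0.18, with 0.14 in brain and 0.23 in spinal cord. None reached the pathway threshold of 0.3, and the values of those that rose lay between 0.17 and 0.25. Of the 13, 9 were in the quintile with the most footprints per base, where 20.2% of all genes rose. With the trend removed the median was 0.058 and 4 of the 13 still passed, namely Rps15a, Rpl13, Rps25 and Rpl15. Without control spinal cord library 1, 3 passed. Ribosomal protein genes have many processed pseudogenes that can share their reads, and the alignment allowed several positions per read, so single members are uncertain.

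Rps15a, of the small subunit, was the ribosomal protein gene with the smallest p and the one whose genotypes separated in both tissues. Its footprints were 197.5, 231.6 and 236.4 CPM in control brain and 259.2, 241.2 and 257.7 CPM in SMA brain. In spinal cord they were 163.8, 156.4 and 173.3 CPM in control and 190.6, 206.8 and 184.6 CPM in SMA. The log2 fold change was 0.21 ± 0.058 (SE, adjusted p = 0.321 in edgeR), and 0.20 with the trend removed, where it passed. The smallest difference between genotypes was that of 236.4 and 241.2 CPM in brain, so the separation there was narrow.

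mRNAs of ribosomal proteins and of some translation factors begin with a C and a run of pyrimidines, the terminal oligopyrimidine (TOP) motif, through which mTOR signalling controls their translation. RefSeq starts (GRCm38.p6) were at hand for 9 of 14 genes, the 13 ribosomal protein genes and Rack1, a ribosome scaffold that rose by 0.14 ± 0.065. A C at the annotated start followed by at least 4 pyrimidines was found in 4 of the 9 (44.4%), against 3.01% of 27025 genes with a start. These 4 rose, but with the trend removed Rps18 was at 0.081 and Rack1 at 0.037, and neither passed. They are shown with Rps25, which rose by 0.20 without such a run at its annotated start, as did Rpl13 by 0.25. Rps9, Rpl19 and Rpl10, also without a run there, did not pass. The window of Rps25 opens with pyrimidines ahead of the annotated start, so the result depends on where that start was placed. Each window has 15 bases before and 15 from the start on, 5′ to 3′, with the run in capitals.
Rps15a: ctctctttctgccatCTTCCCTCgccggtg
Rpl15: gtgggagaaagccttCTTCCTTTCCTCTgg
Rps18: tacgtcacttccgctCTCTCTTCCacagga
Rack1: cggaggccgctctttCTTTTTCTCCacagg
Rps25: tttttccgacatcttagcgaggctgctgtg
The windows lie at chr7:118116133-118116162 (minus strand), chr14:18270972-18271001 (minus), chr17:33955651-33955680 (minus), chr11:48800345-48800374 (plus) and chr9:44407699-44407728 (plus). The runs have 8, 13, 9 and 10 bases in the order shown. Of the 13 named translation factors, Rack1 was the only one that rose and 0 fell, with a median of 0.010.

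Genes of energy metabolism were mostly above 0 as well. Nuclear-encoded oxidative phosphorylation had 25 of 27 named members above 0, a median of 0.13 and 7 that rose with 0 that fell, against 6.25% of all genes that rose and 20.2% in the densest quintile, which held 23 of the 27. Atp5g3, of the ring of ATP synthase, had 222.3, 251.7 and 280.3 CPM in control brain and 288.2, 280.4 and 282.5 CPM in SMA brain. In spinal cord it had 189.5, 217.0 and 232.1 CPM in control and 230.1, 297.5 and 271.4 CPM in SMA. Its libraries barely separated in brain and overlapped in spinal cord, with a log2 fold change of 0.25 ± 0.079 (SE, adjusted p = 0.321 in edgeR). With the trend removed the median was 0.050 and 4 passed: Atp5g3, Atp5g1, Ndufs4 and Ndufs6. In glycolysis Eno2 and Pgam1 each rose by 0.19, and the other 2 named members did not pass. With the trend removed Pgam1 was at 0.072 and did not pass.

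Neuronal genes were the third group above 0. Of 18 named members, 15 were above 0, 7 rose and 0 fell, and the median was 0.096. Of all genes 6.25% rose, and 20.2% of those in the densest quintile, which held 14 of the 18. Rtn1, a reticulon of the neuronal endoplasmic reticulum, had 530.3, 629.2 and 647.2 CPM in control brain and 678.6, 643.5 and 754.4 CPM in SMA brain. In spinal cord it had 494.1, 585.6 and 617.3 CPM in control and 665.1, 798.2 and 742.6 CPM in SMA. The spinal cord libraries did not overlap and 1 brain library of each genotype did. The log2 fold change was 0.29 ± 0.077 (SE, adjusted p = 0.321 in edgeR), and 0.17 with the trend removed, where it passed.

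Nsg2, a protein of neuronal vesicle traffic, rose by 0.29 ± 0.074. Vamp2, the synaptobrevin of synaptic vesicles, rose by 0.30 ± 0.094 and was the member that passed the pathway thresholds. Mapt, the microtubule protein tau, rose by 0.28 ± 0.094, and Elavl3, an RNA-binding protein of neurons, by 0.17 ± 0.058. These 4 and Rtn1 also passed with the trend removed, with values between 0.12 and 0.22, and the median of the list was then 0.037. The motor neuron list had no member with a name, and nothing is given for motor neurons.

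Among tubulins Tubb5, a beta-tubulin, rose by 0.31 ± 0.10 (SE, adjusted p = 0.321 in edgeR). Its footprints were 1051, 1487 and 1486 CPM in control brain and 1534, 1340 and 1693 CPM in SMA brain, an overlap, and 740.6, 836.8 and 912.1 CPM in control spinal cord against 964.5, 1263 and 1126 CPM in SMA spinal cord, where the genotypes separated. With the trend removed it was 0.13 and passed. Tubd1, the delta-tubulin of centrioles, fell by 0.61 ± 0.20 (SE, adjusted p = 0.321 in edgeR) at a mean of 7.32 CPM, and Tubb6 rose by 0.22 ± 0.092. All 4 named genes for 14-3-3 proteins, adaptors that bind phosphorylated partners, were above 0, and Ywhaz, Ywhab and Ywhae rose by 0.26, 0.17 and 0.25. With the trend removed 0 of the 4 passed.

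**Figure D3:**
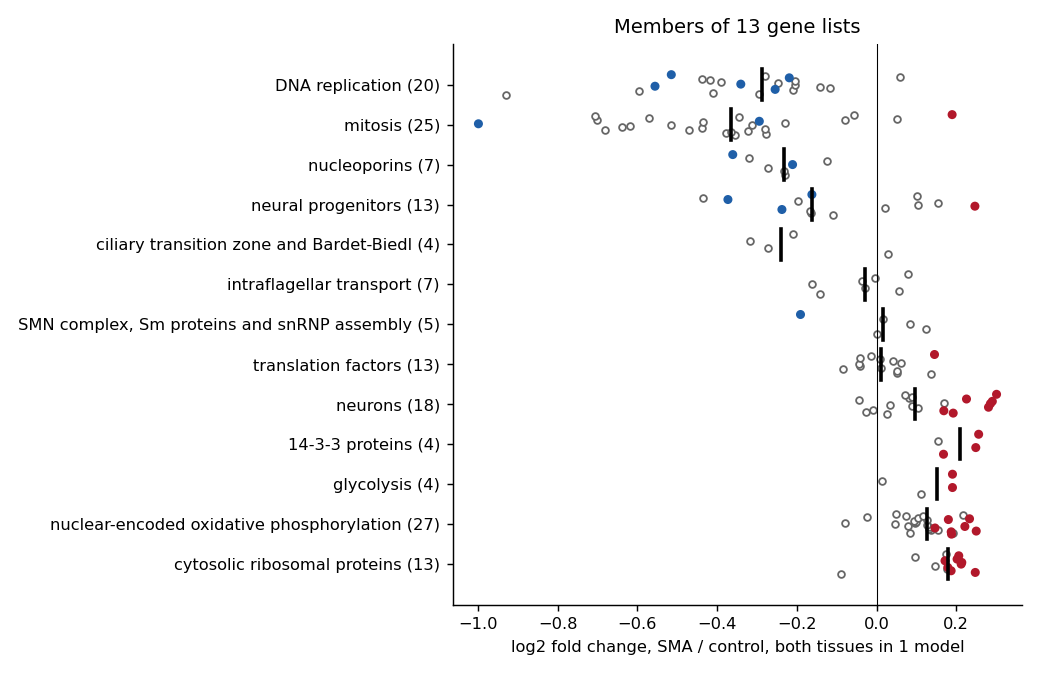
Each circle is a named member of a gene list, placed by its log2 fold change, SMA over control, in the additive fit (x axis). Filled circles had an unadjusted p below 0.05 (blue lower, red higher), thick bars are list medians, and the number of named members stands in brackets. Replication and mitosis have 42 of 45 members below 0, and ribosomal proteins 12 of 13 above 0. Of all 10481 genes, 5483 are below 0 and 4998 above.

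Of the 53 named genes past the pathway thresholds, 44 were lower and 9 were higher, whereas over all genes 209 were lower and 170 higher, so the named genes do not stand for the rest in this. Those outside the lists were picked after their values were seen. Fnbp4, which binds formins through its WW domains, had the smallest p of all 10481 genes. Its footprints were 71.88, 64.51 and 69.04 CPM in control brain and 53.86, 51.96 and 51.87 CPM in SMA brain. In spinal cord they were 71.64, 63.41 and 64.16 CPM in control and 49.23, 44.67 and 55.81 CPM in SMA. No SMA library overlapped with a control library of its tissue, and the log2 fold change was -0.40 ± 0.067 (SE, adjusted p = 0.276 in edgeR).

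Nemf, which marks chains stalled on the large ribosomal subunit in quality control, fell by 0.36 ± 0.078 (SE, adjusted p = 0.321 in edgeR). It had 59.08, 60.94 and 61.48 CPM in control brain against 44.84, 56.78 and 50.76 CPM in SMA brain, and 77.87, 72.79 and 66.34 CPM in control spinal cord against 54.41, 47.19 and 54.99 CPM in SMA spinal cord. No SMA library reached a control library of its tissue. Dcp1a, of the mRNA decapping complex, fell by 0.31 ± 0.092, and Pan2, of a poly(A) nuclease, by 0.31 ± 0.11.

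Timm44, of the motor that pulls proteins into mitochondria, fell by 0.41 ± 0.096 (SE, adjusted p = 0.321 in edgeR) without overlap in either tissue. Golga5, a golgin of the Golgi apparatus, fell by 0.30 ± 0.077 and Pkn2, a protein kinase, by 0.45 ± 0.16, both without overlap. Without control spinal cord library 1 Pkn2 was at -0.27. Tiam1, which activates Rac, fell by 0.34 ± 0.087, and Zfp687, a zinc finger protein, by 0.33 ± 0.090. Each of these 5 genes also passed with the trend removed.

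Among the higher genes, Dad1, a subunit of the enzyme that attaches N-glycans in the endoplasmic reticulum, had 31.40, 18.49 and 21.96 CPM in control brain and 32.26, 33.59 and 33.19 CPM in SMA brain. In spinal cord it had 34.15, 22.42 and 22.55 CPM in control and 38.74, 38.65 and 36.33 CPM in SMA. All SMA libraries exceeded the control libraries of their tissue, though control library 1 of each tissue came close to them. The log2 fold change was 0.48 ± 0.13 (SE, adjusted p = 0.321 in edgeR), and 0.56 with the trend removed, where it passed. Ubb, which encodes polyubiquitin, rose by 0.33 ± 0.11. Uba1, the enzyme that activates ubiquitin, rose by 0.14 ± 0.043 without overlap in either tissue, but it was at -0.013 with the trend removed.

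**Figure D4:**
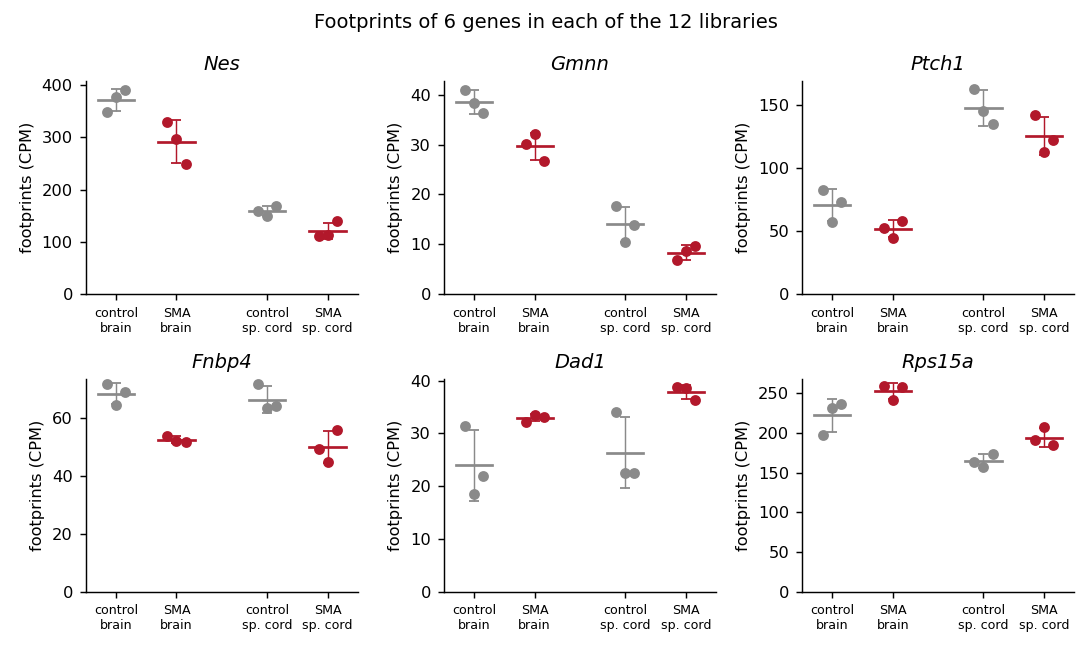
Points are the footprints of 6 genes in each of the 12 libraries, in CPM with TMM factors, for control (grey) and SMA (red) libraries of brain and spinal cord. Bars are the mean and SD of 3 libraries. Nes, Gmnn and Fnbp4 are lower, and Dad1 and Rps15a higher, in every SMA library than in every control library of the same tissue, and Ptch1 overlaps in both tissues.

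The rule for named genes also took up to 12 lower and 12 higher genes with the smallest p at the thresholds of the study, averaging 20 counts or more in each tissue and with the same sign in both. There were 45 lower and 6 higher genes to choose from, and 2 in each direction of those taken had a name. Gmnn and Tubd1 were the lower ones. Sh3bp1 rose by 0.74 ± 0.27, with 0.13 in brain and 1.28 in spinal cord, and it was at 0.49 without SMA spinal cord library 2. Rnase4, a secreted ribonuclease, rose by 1.07 ± 0.46, and its 57.49 CPM in SMA spinal cord library 1, the library with the liver and yolk sac genes, compared with at most 14.31 CPM in the other libraries. Without that library it was at 0.11 and did not pass. Of genes without a name, ENSMUSG00000022548 was lower in SMA, with -0.56 and no overlap in either tissue, and so was ENSMUSG00000037572, with -0.53. ENSMUSG00000112926 was higher, with 0.51 and no overlap.

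Genes of other tissues were counted as a check on dissection. The 13 named genes of liver and yolk sac had a median of 1.35 with 0 that passed, and the median ran from -1.05 to 2.98 when each library was left out, with the lowest value without SMA spinal cord library 1. Of 7 named erythroid genes Slc4a1, the anion exchanger of red cells, rose by 1.46 ± 0.41, from 1.042 to 1.891 CPM in control libraries to 1.394 to 10.73 CPM in SMA libraries, and it was at 0.93 without SMA spinal cord library 1. Genes of meninges and connective tissue had 13 of 14 named members below 0, a median of -0.16 and 1 that fell, Col2a1, a collagen of cartilage, by 0.29 ± 0.12 (-0.24 with the trend removed, where it did not pass). Among 12 genes of macrophages and leukocytes, 3 of endothelium, 3 of Schwann cells and sensory ganglia, 8 Hox genes and 5 forebrain genes, 0 passed. Summed CPM of liver and yolk sac genes was 40.01 to 42.88 in control brain and 51.21 to 93.77 in SMA brain. Endothelium had 83.19 to 91.62 in control and 66.71 to 72.55 in SMA brain, and meninges 1121 to 1177 and 1003 to 1093. Sums overlapped in spinal cord, and in brain for the other lists of this paragraph. In brain alone 4 of 13 liver and yolk sac genes were higher (185 of 10481 overall) and 4 of 14 meningeal genes lower (344). The cause was not tested. The forebrain median was -0.42 with all libraries and 0.22 without control spinal cord library 1. Imprinted growth genes had 0 of 6 that passed, and in the list of SMA modifiers and actin binders Uba1 was the 1 of 6 that did.

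How far each group depended on the doubted library and on the trend differed between groups. Replication and mitosis went to -0.096 and -0.13 without control spinal cord library 1, but stayed at -0.22 and -0.30 with the trend alone removed. Ribosomal proteins, oxidative phosphorylation and 14-3-3 proteins kept most of their median without that library (0.15, 0.10 and 0.17) and lost most of it with the trend removed (0.058, 0.050 and 0.065). Nes, Gmnn, Fnbp4, Nemf, Timm44, Dad1 and Rps15a passed with the trend removed and with any 1 library left out. Pttg1 did not pass without SMA spinal cord library 2, nor Uhrf1 without SMA spinal cord library 2 or 3, nor Col2a1 without control spinal cord library 3. Polk, Tpr, Chaf1a, Tubb6, Rps18, Ywhae, Fabp7, Rpl15, Rack1 and Wdr77 each lost their call with between 3 and 8 of the 12 libraries, left out one at a time.

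**Figure D5:**
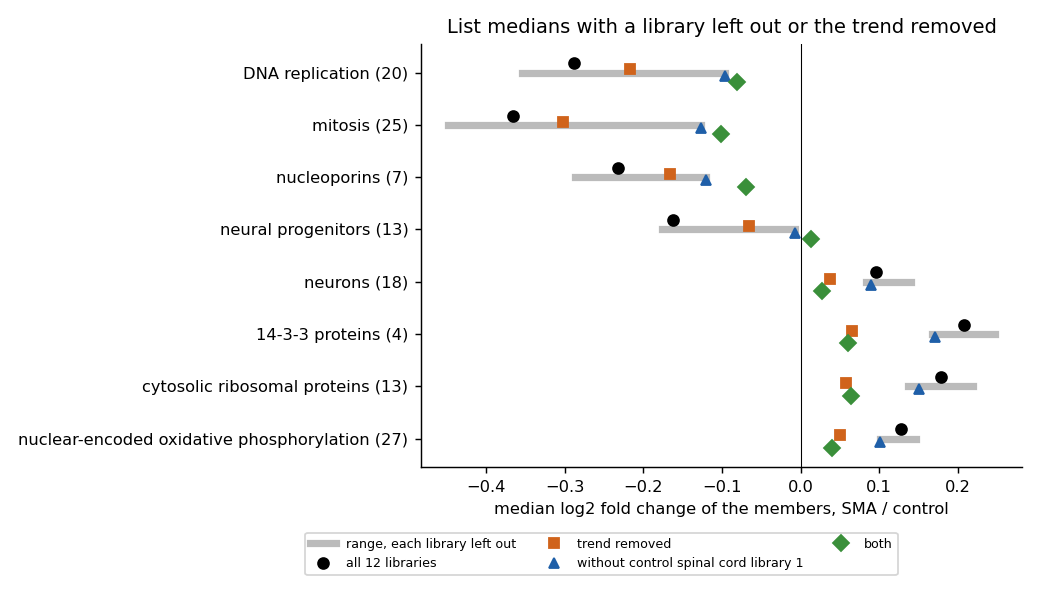
Symbols give the median log2 fold change of each list (x axis) with all 12 libraries (black), with each library's trend on footprints per base removed (orange), without control spinal cord library 1 (blue) and with both changes (green). Grey bars span the medians with each library left out in turn. The replication median went from -0.29 to -0.096 without that library, and the ribosomal protein median from 0.18 to 0.058 with the trend removed.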

How the data were processed

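Ribosome footprints were measured in 12 libraries of embryonic brain and spinal cord, 3 for each genotype and tissue. Per the labels and the study's methods, the authors trimmed reads with cutadapt 4.1, removed rRNA and tRNA reads, aligned the rest to GRCm38.p6 with STAR 2.5.3a, and removed genes of low FPKM. The deposited values are raw footprint counts per gene, from 3683842 to 12793955 per library. The alignment allowed several positions per read, and reads at the same transcript position were collapsed for the positional analyses, a step that limits the counts of dense genes. Whether the deposited counts come before or after that step, and the counting tool, are not given in the sources used here. Groups came from the labels.

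The counts were fitted in edgeR 4.0.16 (R 4.3.3) by quasi-likelihood with TMM factors and the model tissue plus genotype, with Benjamini-Hochberg adjustment over 10481 genes. The SE was the absolute log2 fold change over the square root of F, and CPM values used TMM factors. Each tissue was also fitted alone, and an interaction was tested. The trend on footprints per base was removed with loess offsets within each tissue. Alternatives were other scalings, filters on low counts, DESeq2 1.42.0, limma 3.58.1 (voom), blocks, other fold thresholds, and each library left out. By rule the text names Smn1 and the ciliary genes of the study (not analysed here where no name was at hand), the 12 genes in each direction with the smallest p at the study's thresholds, and of each list the members past the pathway thresholds and the 2 with the highest mean CPM, of which only those the results turn on are described. Other genes were named after their values were seen. The members and gene lists were chosen with earlier results of these data known. The code was tested on simulated data. Promoter sequences are RefSeq's.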

Additional observations from a re-analysis of the deposited data

How the results depend on the processing

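The count at an adjusted p below 0.05 was 0 in edgeR and in limma voom, and 53 with DESeq2. At an unadjusted p, brain alone gave 529 genes and spinal cord alone 733, and leaving out each library in turn gave 910 to 1492. At the study's thresholds the 63 lower genes became 32 with the trend removed. They became 25 when control spinal cord library 1 was left out as well (an alternative chosen after seeing the data). Brain alone gave 104 and spinal cord alone 67. The lower genes were 209 and 11 with a fold threshold of 0.3 and 1, and 28 to 151 with each library left out. The 26 higher genes became 15 with DESeq2, 63 with the trend removed, and 44 without control spinal cord library 1 as well. Brain alone gave 56 and spinal cord alone 36. The higher genes were 170 and 13 with a fold threshold of 0.3 and 1, and 23 to 104 with each library left out. The share of lower genes was 70.8%, and 33.7% with the trend removed. Beyond fewer samples or the threshold itself, the cause was not tested.

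Of 58 named genes that passed in the additive fit, 46 kept direction and call with the trend removed, 11 lost the call and Uba1 turned to -0.01328. DESeq2 kept the call of all 58 at an unadjusted p, and 9 named genes passed its adjustment. The 58 were picked by their call in the same counts, so neither this nor the next value is independent support. Leaving out each library in turn kept 626 of 696 values past the threshold and reversed none. With each tissue fitted alone, 47 of 116 values kept the call, 69 lost it and 0 reversed. Deviations from the group means of same-numbered libraries had correlations of -0.437 to 0.701 within a tissue. Between tissues of a genotype they were 0.389, 0.175 and 0.13 in SMA and 0.0994, -0.0216 and 0.177 in control. Libraries of different number had -0.319 to 0.194 there in SMA and -0.165 to 0.0676 in control. These few values do not settle which libraries share an embryo, so fits with and without a block are given. The replicate block joins control and SMA libraries of the same number, which cannot come from one embryo. It therefore does not model shared embryos, unlike the embryo block. With the replicate block 1434 genes had an unadjusted p below 0.05 (1554 with the block within tissue), 70 were lower and 21 higher at the study's thresholds (90 and 20), and 0 passed adjustment. With the embryo block in limma voom the counts were 1172, 44 and 26, and 5 of the 58 named genes lost the call. In limma voom without it the counts were 1302, 50 and 27, and 4 of the 58 lost the call. Depth limits genes of low counts, and the number of libraries limits every value.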
